A study of Mus musculus with 4 samples.

Results

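The fatty acid binding proteins are described here in mouse liver through every probe set of the array annotated to Fabp1, Fabp2, Fabp4 or Fabp5. These were 5 of the 12422 non-control probe sets, for 4 of the 8251 genes that had a probe set of their own. The genes were chosen by a rule that used measured values of these arrays, the lower Fabp5 signals on the high-fat diet in both genotypes, so the values below are a description and the diet ratios of Fabp5 in particular support nothing beyond themselves. Liver RNA of female mice, killed at 8 months of age in the fed state, was hybridised to 4 Affymetrix arrays of the type MG_U74Av2, which carry short oligonucleotide probes. The mice were wild type or HSL-null, a general knockout of hormone-sensitive lipase, and had eaten for 6 months a diet with 11% of its energy as fat (normal diet, ND) or with 58% (high-fat diet, FD). Each group was 1 pool of livers on 1 array, with 4 livers in the HSL-null FD pool and 6 in each of the other pools. There were no replicates and no difference could be tested. The precision is limited by the number of arrays. The words higher and lower therefore compare these pools only. The labels do not give the strain or the deleted part of the gene.

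Fatty acid binding proteins are small cytosolic proteins that hold a long-chain fatty acid in a barrel of beta strands and carry it between membranes, enzymes and nuclear receptors. FABP1 is the abundant form of hepatocytes and also binds acyl-CoA and other bulky ligands, FABP2 is best known from enterocytes, FABP4 from adipocytes, macrophages and capillary endothelium, and FABP5 from epidermis, macrophages and several other tissues. Fabp1 is a textbook target of PPARA, the fatty acid receptor of liver, and Fabp4 of PPARG, the receptor that drives fat cell formation.

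RefSeq promoter sequences of the build GRCm38.p6 were matched for Fabp1 and Fabp2 of the 4 genes. The promoter set used held no entry for Fabp4 or Fabp5, so neither was searched. The 250 bases before the annotated start are shown because these genes of the fatty acid pathway had diet ratios of opposite sign in wild type. Capitals mark a match to the repeat that PPAR and HNF4 receptors bind. The Fabp1 stretch lies at chr6:71199629-71199878 and the Fabp2 stretch at chr3:122894822-122895071, both on the plus strand and read 5′ to 3′.
Fabp1: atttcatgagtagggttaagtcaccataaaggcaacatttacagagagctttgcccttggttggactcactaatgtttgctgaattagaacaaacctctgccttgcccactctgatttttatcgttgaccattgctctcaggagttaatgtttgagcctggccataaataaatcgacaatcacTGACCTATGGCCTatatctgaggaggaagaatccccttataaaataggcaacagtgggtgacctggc
Fabp2: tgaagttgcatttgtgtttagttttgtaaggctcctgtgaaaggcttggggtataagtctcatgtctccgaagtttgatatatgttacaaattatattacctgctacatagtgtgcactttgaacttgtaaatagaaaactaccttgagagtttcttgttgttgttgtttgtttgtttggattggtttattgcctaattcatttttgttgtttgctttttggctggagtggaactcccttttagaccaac
The search was for AGGTCANAGGTCA with at most 1 mismatch, for the HNF1 motif GTTAATNATTAAC with at most 1 mismatch and for TATAAA with 0 mismatches, on both strands, and the matches do not overlap. Fabp1 had 1 match to the repeat, with 1 mismatch on the minus strand, from base 67 to base 55 before the start. It also had TATAAA from base 30 to base 25. Of the 32851 promoter stretches of that length in the table, 0.484% held the repeat, 0.189% the HNF1 motif and 12.4% TATAAA. Fabp2 had a match to none of the 3 motifs, and Fabp1 had none to the HNF1 motif. A match says that the letters are present and a missing match that they are not in this stretch.

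The arrays were alike in overall signal, with medians of 25.2 to 28.3 over the non-control probe sets and 24.1 to 26.0% of probe sets at or under a signal of 6.1. That signal, the 25th percentile of all values, served as a floor before log2 ratios were taken. Ratios over all genes used 4829 genes whose brightest probe set had a mean signal of at least 26.9 over the 4 arrays. The only measure of error came from the disagreement of log2 ratios between 2 probe sets of a gene. The error SD derived from it for the log2 ratio of an individual probe set was 0.298 over 687 genes, called the probe-set SD here. It leaves out error shared on an array and variation between animals. Lipe, the gene of hormone-sensitive lipase, was lower in the HSL-null pools, with 11.9 on ND and 15.9 on FD, than in the wild-type pools, with 28.0 and 34.0. Its mean of 22.45 lay under the cut of 26.9, so the probe-set SD does not describe its error. The markers of hepatocytes were bright on all arrays, with 0 of 7 at or under the floor on any, and albumin, encoded by Alb, had signals of 4680 to 6913.

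**Figure D1:**
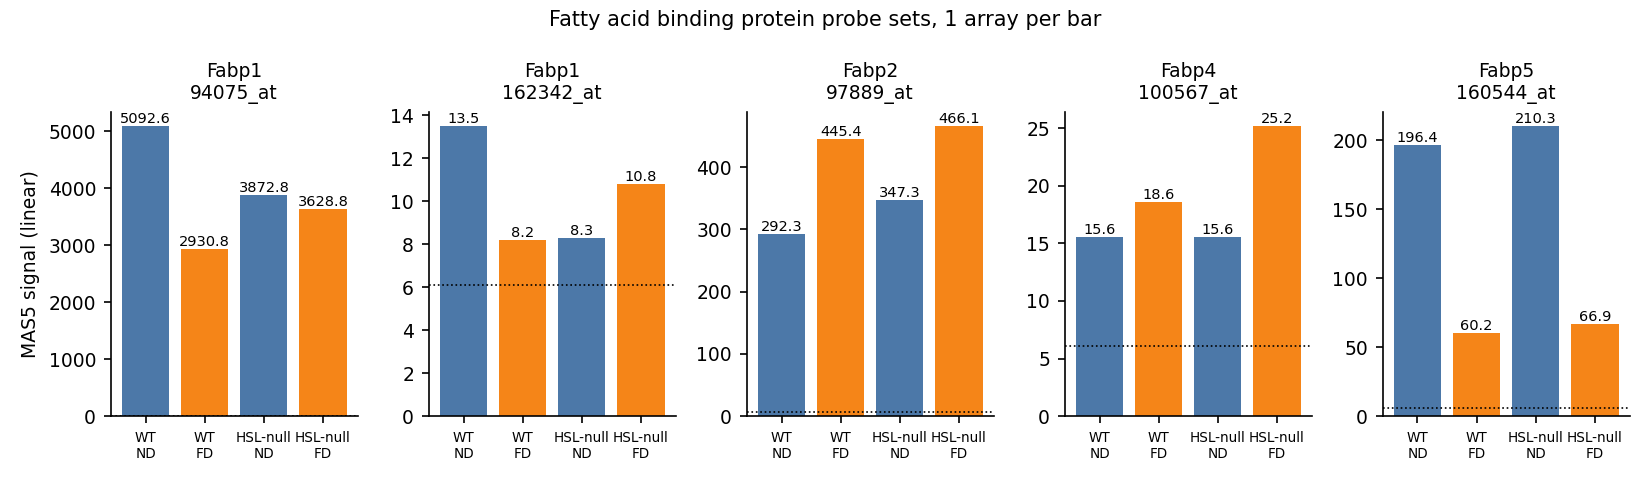
MAS5 signal (linear, arbitrary units, own axis in each panel starting at 0) of the 5 probe sets on the 4 arrays, with 1 bar per array, blue for ND and orange for FD; the dotted line is the floor of 6.1. Fabp5 stands at 196 and 210.3 on the ND arrays and at 60.2 and 66.9 on the FD arrays.

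Fabp1, the carrier of hepatocytes, was lower on FD than on ND in wild type and had a diet ratio near 0 in HSL-null liver. Its brighter probe set, 94075_at, had signals of 5093 in the wild-type ND pool, 2931 in the wild-type FD pool, 3873 in the HSL-null ND pool and 3629 in the HSL-null FD pool. The wild-type ND pool was thus the highest and the wild-type FD pool the lowest, with both HSL-null pools between them. The log2 ratio of FD to ND was -0.80 in wild type, a 1.74-fold difference, which is -2.67 in units of the probe-set SD. It was -0.094 in HSL-null liver, which is within 1 probe-set SD of 0. The sign of the HSL-null ratio was not settled, as it was 0.077 with quantile normalization, 0.065 with cyclic loess and 0.14 as the mean of the gene's probe sets. At the reported scaling the diet ratio was 0.70 higher in HSL-null than in wild-type liver. That difference has an SD of 0.421 from probe-set disagreement alone and was not tested. With median scaling the diet ratios lay closer together, at -0.66 in wild type and -0.25 in HSL-null liver.

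A second Fabp1 probe set, 162342_at, was dim, with signals of 13.5, 8.2, 8.3 and 10.8 in the same order of pools. Its mean of 10.2 lay under the filter, and its values were just above the floor. It had the wild-type ND pool highest and the wild-type FD pool lowest too, with log2 ratios of FD to ND of -0.72 in wild type and 0.38 in HSL-null liver. The probe sets therefore had the same sign in wild type and opposite signs in HSL-null liver.

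Other bright genes of hepatocytes were lower on the wild-type FD array as well. Alb had a log2 ratio of FD to ND of -0.47 in wild type, the apolipoprotein genes Apoa1 and Apoa2 -0.44 and -0.22, and Cps1, which encodes the first enzyme of the urea cycle, -0.60. All 7 kept hepatocyte markers were below 0 there, with a median of -0.27, and 6 of 7 were below 0 in HSL-null liver, with a median of -0.18. Over all genes 55.7% were below 0 in wild type and 42.8% in HSL-null liver. Among the 100 genes of highest mean signal, a group formed after the Fabp1 values were seen, 85 were below 0 in wild type, with a median of -0.22 and an SD across genes of 0.27. Only 1 of these genes had a lower ratio than Fabp1 there, and Fabp1 lay 0.57 below their median. In HSL-null liver Fabp1 lay 0.050 above the median of the same genes, which was -0.14. The size of both depended on the normalization. The Fabp1 ratio in wild type was -0.75 with cyclic loess, -0.66 with median scaling and -0.48 with quantile normalization, and the median of the hepatocyte markers was -0.29, -0.13 and -0.039 in that order. Their part in the Fabp1 ratio was not tested.

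Fabp2, the enterocyte form, was higher on FD in both genotypes by less than 2-fold. Probe set 97889_at had signals of 292 in the wild-type ND pool, 445 in the wild-type FD pool, 347 in the HSL-null ND pool and 466 in the HSL-null FD pool. Both FD pools were above both ND pools. The log2 ratio of FD to ND was 0.61 in wild type and 0.42 in HSL-null liver, or 2.04 and 1.42 probe-set SDs, with a mean of 0.52 ± 0.13 (SD, n = 2 array pairs, 1 per genotype, which are not replicates). In wild type 199 of the 4829 genes had a higher ratio, and in HSL-null liver 397 did. Over 7 alternative settings and the reported one the ratio stayed between 0.58 and 0.75 in wild type and between 0.27 and 0.44 in HSL-null liver.

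Of the 8 enterocyte markers on the array 4 were kept and the rest were dim. Vil1, which encodes villin of the brush border, and Cdx2, the intestinal transcription factor, were under the floor on all 4 arrays, and 3, 3, 2 and 3 of the 8 markers were at or under it on wild type ND, wild type FD, HSL-null ND and HSL-null FD. The summed signal of the list was 3030, 3361, 3747 and 3315 in that order, most of it from Apoa4, an apolipoprotein gene that liver expresses too, at 2724 to 3374. Mttp, which encodes the lipid transfer protein of lipoprotein assembly in gut and liver, had signals of 119.7 to 160, the aminopeptidase gene Anpep 130.7 to 162.9 and the mucin gene Muc13 45.3 to 58.7. All 4 kept markers were above 0 on FD in wild type, as Fabp2 was, with a median of 0.30. In HSL-null liver 1 of the 4 was above 0 and the median was -0.090. Over all genes 44.0% were above 0 in wild type and 56.9% in HSL-null liver. Mttp had diet ratios of 0.38 in wild type and -0.025 in HSL-null liver, Anpep 0.32 and -0.16, Muc13 0.27 and 0.24 and Apoa4 0.13 and -0.19. At its other probe set, under the filter, Muc13 had -0.79 and 0.23, with the opposite sign in wild type. Their part in the Fabp2 ratios was not tested.

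Fabp4, the adipocyte form, had low signals. Probe set 100567_at had 15.6 in the wild-type ND pool, 18.6 in the wild-type FD pool, 15.6 in the HSL-null ND pool and 25.2 in the HSL-null FD pool. The HSL-null FD pool was the highest, and all 4 values lay above the floor. The mean of 18.8 lay under the filter of 26.9, so Fabp4 is not among the 4829 genes and has no rank. Its log2 ratio of FD to ND was 0.25 in wild type, within 1 probe-set SD of 0, and 0.69 in HSL-null liver, or 2.32 probe-set SDs. That SD was measured only on probe sets above the filter, so it does not describe the error of a probe set this dim. At such signals the ratio depends on how low values are treated, and it was 0.38 in HSL-null liver with a pseudocount of 16 in place of the floor.

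The fat cell markers did not share an order over the pools. Adipoq, which encodes the fat cell hormone adiponectin, had signals of 18.1 in the wild-type ND pool, 9.2 in the wild-type FD pool, 4.8 in the HSL-null ND pool and 4.9 in the HSL-null FD pool. It was thus under the floor in the HSL-null FD pool, where Fabp4 was highest. Slc2a4, another of these markers under the filter, had 23.5, 22.0, 11.1 and 4.2 in the same order of pools. It was also lowest in the HSL-null FD pool. Retn, which encodes resistin, and Cidec, a lipid droplet gene, were under the floor on all arrays. Of the 7 fat cell markers on the array 3 were kept, and the list summed to 1423, 1490, 1069 and 736 in the same order of pools, most of it from Thrsp, which hepatocytes express. The other kept markers, Lep and Lpl, were highest in the HSL-null FD pool at their brightest probe sets, as Fabp4 was. The leptin gene Lep had signals of 99.2, 109.1, 111.8 and 124.7 in that order and diet ratios of 0.14 and 0.16. Lpl, which encodes lipoprotein lipase, had signals of 44.5, 41.2, 54.9 and 56.0 and diet ratios of -0.11 and 0.029. The median genotype ratio of the kept fat cell markers on FD was 0.19, with 2 of 3 above 0 and Thrsp at -1.26. With median scaling that median was 0.025. Macrophages and endothelium make Fabp4 too. On FD, where Fabp4 was 1.35-fold higher in HSL-null than in wild-type liver, the median log2 ratio of macrophage markers was 0.26. Of their kept genes 9 of 9 were above 0. Endothelial markers had a median of 0.16, with 5 of 7 above 0. Over all genes the median in this comparison was 0.067, and 58.3% were above 0. The Fabp4 log2 ratio there was 0.44, and it was 0.27 with median scaling, 0.26 with quantile normalization, 0.28 with cyclic loess and 0.25 with a pseudocount of 16. With median scaling the macrophage median was 0.092, with 5 of 9 above 0, and the endothelial median -0.0061, with 3 of 7 above 0. The part of these cell types in the Fabp4 values was not tested.

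Fabp5, the epidermal form, was lower on FD in both genotypes by about the same factor, and these are the values for which the gene was chosen. Probe set 160544_at had signals of 196 in the wild-type ND pool, 60.2 in the wild-type FD pool, 210.3 in the HSL-null ND pool and 66.9 in the HSL-null FD pool. The FD pools were close to each other and far below the ND pools, which were also close to each other. The log2 ratio of FD to ND was -1.71 in wild type and -1.65 in HSL-null liver, a 3.26-fold and a 3.14-fold difference. The mean was -1.68 ± 0.038 (SD, n = 2 array pairs, 1 per genotype, which are not replicates). From the lowest ratio upwards, Fabp5 ranked 23 of 4829 genes in wild type and 10 of 4829 in HSL-null liver.

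Fabp5 was the only 1 of the 3 family genes above the filter with a 2-fold or larger diet ratio. Over all genes, 2.36% were at least 2-fold lower and 0.787% at least 2-fold higher on FD in wild type. In HSL-null liver the shares were 0.621% lower and 0.828% higher. Median scaling changed these splits from 114 lower and 38 higher genes to 76 and 60 in wild type, and from 30 and 40 to 46 and 23 in HSL-null liver, while the Fabp5 ratios were then -1.56 and -1.81. Only 4 genes, or 0.0828%, were at least 2-fold lower in both genotypes. They were the leptin receptor gene Lepr, the fatty acid elongase gene Elovl6, Fabp5 and Prss2, a pancreatic trypsinogen gene. The rule used this contrast, so nothing is read from these shares. Over 7 alternative settings and the reported one the Fabp5 ratio lay between -1.71 and -1.48 in wild type and between -1.81 and -1.45 in HSL-null liver.

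**Figure D2:**
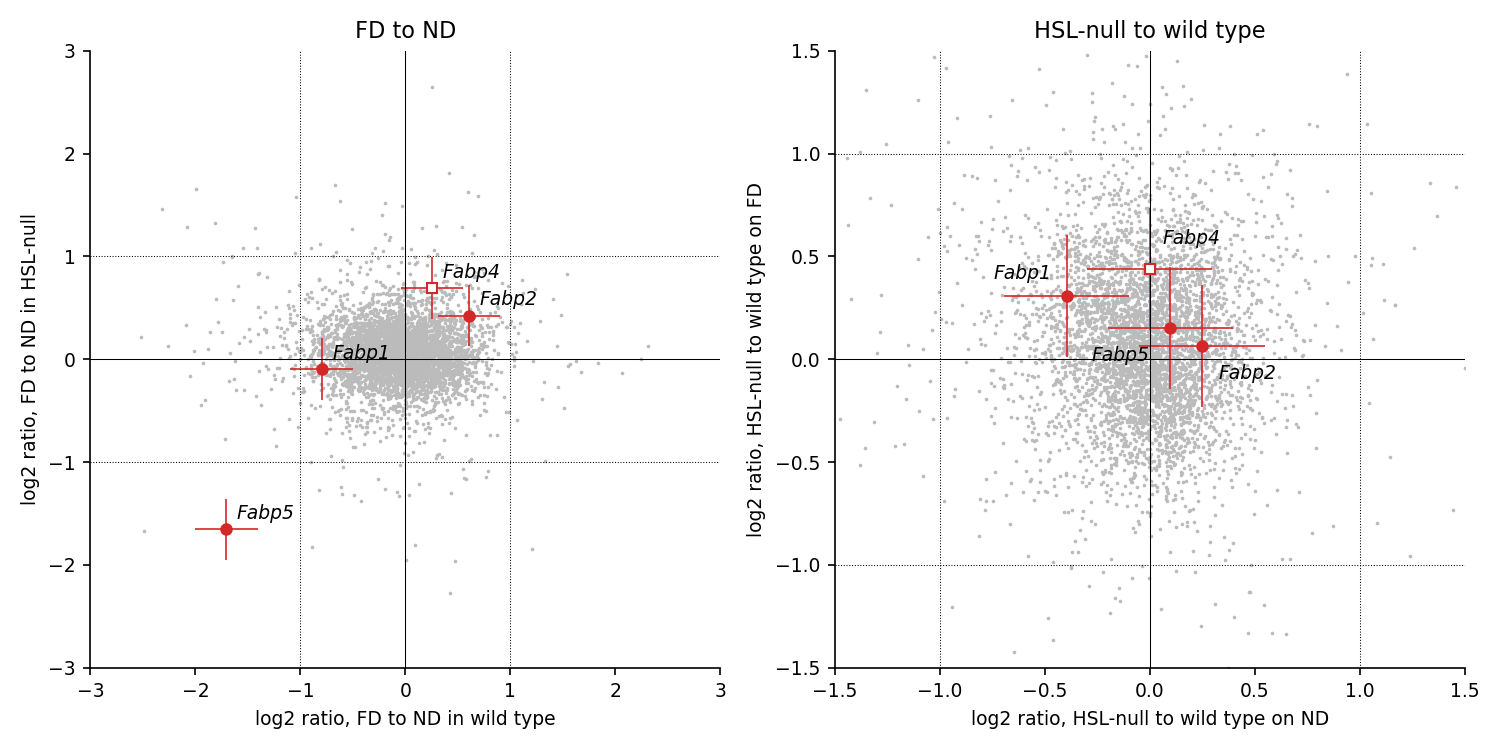
Log2 ratios of the 4 Fabp genes (red, error bars 1 probe-set SD of 0.298; Fabp4, under the filter, as an open square) over those of the 4829 kept genes (grey), for diet on the left and genotype on the right; dotted lines mark 2-fold, and 3 genes on the left and 55 on the right lie outside the axes. Fabp5 lies at -1.71 and -1.65 for diet, apart from the cloud of genes, and the family lies within 2-fold for genotype. The probe-set SD was measured only on probe sets above the filter, so the bars of Fabp4 do not describe its error.

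Macrophages, endothelium and keratinocytes are other cells that make Fabp5, and their part in its ratios was not tested. The Kupffer cell and macrophage markers, of which 9 of 11 on the array were kept, had a median log2 ratio of FD to ND of -0.42 in wild type and -0.059 in HSL-null liver. Their summed signal was 2901 in the wild-type ND pool, 1930 in the wild-type FD pool, 2627 in the HSL-null ND pool and 2494 in the HSL-null FD pool. The lysosomal protease gene Ctss had diet ratios of -0.75 in wild type and -0.14 in HSL-null liver, the Kupffer cell lectin gene Clec4f -0.57 and -0.14, Lyz2, which encodes lysozyme, -0.39 and -0.27, and Mpeg1, which encodes a pore-forming protein of macrophages, -0.96 and 0.041. In bulk liver, fewer cells of a type and less RNA per cell cannot be told apart.

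Endothelial markers had medians of -0.27 in wild type and 0.071 in HSL-null liver over 7 kept genes. Among them, Eng had 0.090 and -0.038, the VEGF receptor gene Kdr -0.72 and 0.071, Cdh5 -0.30 and -0.26 and Tie1 0.29 and 0.093. The 9 endothelial markers on the array summed to 1080.4, 1035, 946 and 924 in the order wild type on ND and FD and HSL-null on ND and FD. Most of that sum came from Eng, at 626.1 to 765.5. Of 8 keratinocyte markers on the array, 3 (Krt14, Ivl and Sfn) were under the floor on all arrays, and 1, Lor, was kept, with -0.62 and 0.13. That list summed to 162, 115, 115 and 143.

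Exocrine pancreas genes set the wild-type ND pool apart. The 6 markers on the array summed to 898 there and to 303 to 364 in the other pools, with Ctrb1, a chymotrypsinogen gene, at 286 against 49.8 to 74.1. Their median diet ratio was -1.44 in wild type and 0.19 in HSL-null liver. The colipase gene Clps had diet ratios of -1.48 in wild type and 0.18 in HSL-null liver, and Cel, which encodes a bile salt-activated lipase, -0.98 and 0.20. Cela1, an elastase gene, had -0.67 and 0.66. The wild-type diet ratios and the ND genotype ratios of the Fabp genes use that array, and the part of pancreas RNA in them was not tested.

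The pattern of Fabp5 over the 4 arrays was compared with that of 4825 kept genes above the floor on all arrays, by the root mean square difference of log2 signals after each gene's own mean was subtracted. Elovl6, which encodes an elongase of saturated fatty acids, was closest, with a difference of 0.28. Its signals were 378 and 67.2 (ND, FD) in wild type, and 327 and 103 in the HSL-null pools. Its other probe set had diet ratios of -1.45 and -1.87, so both showed it lower on FD in both genotypes. Next came Ulk1, which encodes a kinase that starts autophagy (0.33), Pold2, a DNA polymerase subunit gene (0.36), Hk1, a hexokinase gene (0.38), and Ccne1, the cyclin E1 gene (0.41). Ulk1 had diet ratios of -1.23 in wild type and -0.85 in HSL-null liver, and -0.62 and -0.46 at its other probe set. Pold2 had -1.72 and -0.78, Hk1 -1.25 and -0.68 and Ccne1 -0.61 and -1.31. The diet ratio of Fabp5 differed by 0.054 between the genotypes, less than that of any of these 5 genes. The rule used the diet ratios of Fabp5, and the 5 genes were picked for likeness to its pattern, so nothing is read from this. The other Fabp genes ranged less than 2-fold over the arrays or lay under the filter, so no like genes were sought for them.

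**Figure D3:**
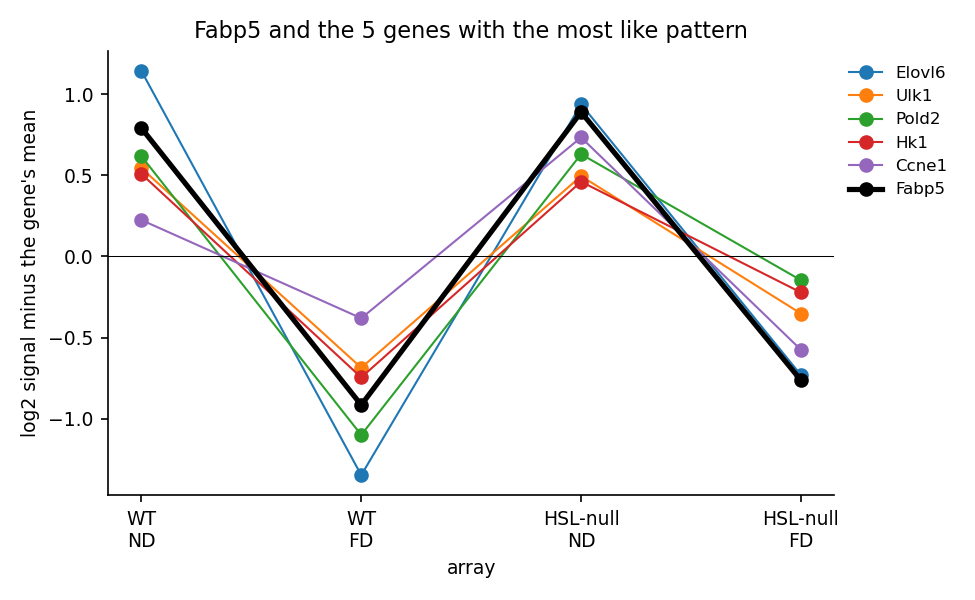
Log2 signal minus the gene's own mean (vertical axis) on each of the 4 arrays (horizontal axis) for Fabp5 (thick black line) and the 5 genes with the smallest root mean square difference from it, 0.28 to 0.41; lines only join the values of a gene. All 6 genes are above their mean on both ND arrays and below it on both FD arrays.

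Genotype ratios of the family were small. On ND, HSL-null liver had a log2 ratio to wild type of -0.40 for Fabp1, 0.25 for Fabp2, 0 for Fabp4 and 0.099 for Fabp5. On FD the ratios were 0.31 for Fabp1, 0.066 for Fabp2, 0.44 for Fabp4 and 0.15 for Fabp5. Among the 3 genes above the filter, 0 reached 2-fold on either diet, where 1.08% of all genes were at least 2-fold lower and 0.497% higher in HSL-null liver on ND, and 0.953% and 1.86% on FD. The genotype and diet ratios of a gene share arrays and are not separate evidence. Fabp1 changed sign between the diets, from 1.31-fold lower in HSL-null liver on ND to 1.24-fold higher on FD. Its dim probe set gave the same signs, with -0.70 and 0.40. With median scaling the brighter probe set had -0.26 and 0.14, both within 1 probe-set SD of 0. Fabp5 lay within 1 probe-set SD of 0 on both diets, in ratios made from the same signals that the choice of the gene used. The sign of the ratio on FD was not settled for Fabp5, at -0.015 with median scaling, or for Fabp2, at -0.10. The solution lot in the arrays' run settings differed between the genotypes, and lot and genotype cannot be told apart.

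Other genes of the same protein family were mostly too dim to follow. Of 11 relatives on the list 7 were on the array and 1, Fabp7, the brain form, was kept. Fabp7 had signals of 70.9 in the wild-type ND pool, 37.3 in the wild-type FD pool, 73.0 in the HSL-null ND pool and 66.5 in the HSL-null FD pool. The wild-type FD pool stood apart as the low one, and the diet ratio was -0.93 in wild type and -0.13 in HSL-null liver. Fabp3, the heart form, had 5.5 to 10.5 and Fabp6, the ileal bile acid binder, 15.5 to 27.1 at its brighter probe set. The retinoid carriers Crabp2 and Rbp2 were under the floor on all arrays. In the RefSeq gene order Fabp5, Pmp2, Fabp9, Fabp4 and Fabp12 follow each other directly. Of the measured members of this row Fabp5 alone was lower on FD in both genotypes, as Fabp4 had ratios of 0.25 and 0.69 and the probe sets of Fabp9 had signals of 0.4 to 7.7, at or close to the floor.

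Genes of fatty acid uptake and activation had 0 of 7 kept genes at 2-fold in either diet comparison, with medians of -0.0070 in wild type and -0.049 in HSL-null liver, against -0.047 and 0.041 over all genes. Cd36, the fatty acid translocase that PPARG induces in liver, had signals of 28.1 and 36.7 (ND, FD) in wild type, and 24.9 and 47.5 in the HSL-null pools. These are low signals, close to the filter. Its diet ratios were 0.39 and 0.93, and both were above 0 with each of the 3 other scalings. Slc27a4, a fatty acid transport protein gene, had 0.39 and 0.19, Slc27a5, the bile acid and fatty acid ligase gene of liver, -0.0070 and -0.39, and Acsl5, an acyl-CoA synthetase gene, 0.041 and -0.45. The intracellular carriers of other lipids also had 0 of 7 at 2-fold, with medians of -0.019 and -0.11. The phosphatidylcholine carrier gene Pctp had 0.50 and -0.20, the glycolipid carrier gene Gltp -0.45 and 0.13, Scp2, which encodes a sterol carrier, -0.39 and -0.11 (0.043 and 0.11 at its other kept probe set), and Stard10 -0.019 and -0.28.

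Receptors that bind fatty acids differed in the same small range. Ppara had 0.10 in wild type and -0.14 in HSL-null liver. Pparg had signals of 22.6 and 35.7 (ND, FD) in wild type, and 24.5 and 43.0 in the HSL-null pools, with diet ratios of 0.66 and 0.81. Cd36 and the dim Fabp4 were also higher on FD than on ND in each genotype. Cd36 was the 1 gene above 0 in wild type among the 5 kept genes of the lipid droplet and steatosis list that PPARG induces, and in HSL-null liver 3 of the 5 were above 0. The 1 probe set of Pparg has a suffix that marks probes shared with other transcripts. The partner receptor gene Rxra had -0.44 in wild type and 0.11 in HSL-null liver, Rxrb had -0.54 and -0.083, and Hnf4a, which encodes the hepatocyte receptor HNF4A, had -0.27 and 0.055. Of the 5 kept receptors 0 reached 2-fold.

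Of 19 kept PPARA targets, 13 were above 0 on FD in wild type, with a median of 0.12, where 44.0% of all genes were above 0. In HSL-null liver 13 were above 0, with a median of 0.17, where 56.9% of all genes were. With median scaling 14 were above 0 in wild type, and in HSL-null liver 10 were above and 9 below, with a median of 0.011. Acot1, an acyl-CoA thioesterase gene, was the 1 target at 2-fold, with 1.03 in wild type and -0.0043 in HSL-null liver. Ehhadh, of peroxisomal beta oxidation, had 0.88 and 0.34, and Ech1, which encodes an enoyl-CoA isomerase, 0.85 and 0.095. The omega hydroxylase genes Cyp4a10 and Cyp4a14 had 0.48 and 0.17, and 0.35 and 0.61. Angptl4, which encodes an inhibitor of lipoprotein lipase, gave 0.025 and -0.93 by its brightest probe set. Its other kept probe sets gave 0.12 and -0.32, and 0.67 and -0.049. Fabp1, with -0.80 and -0.094, was lower in wild type than each of the 19 targets. The lipid droplet and steatosis genes that PPARG induces had medians of -0.11 and 0.0058 over 5 kept genes. Among them were Plin2, a droplet coat gene, with -0.17 and -0.039, G0s2, which encodes an inhibitor of lipolysis, with -0.16 and -0.29, and Lpl. Of these 5 genes 0 reached 2-fold.

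**Figure D4:**
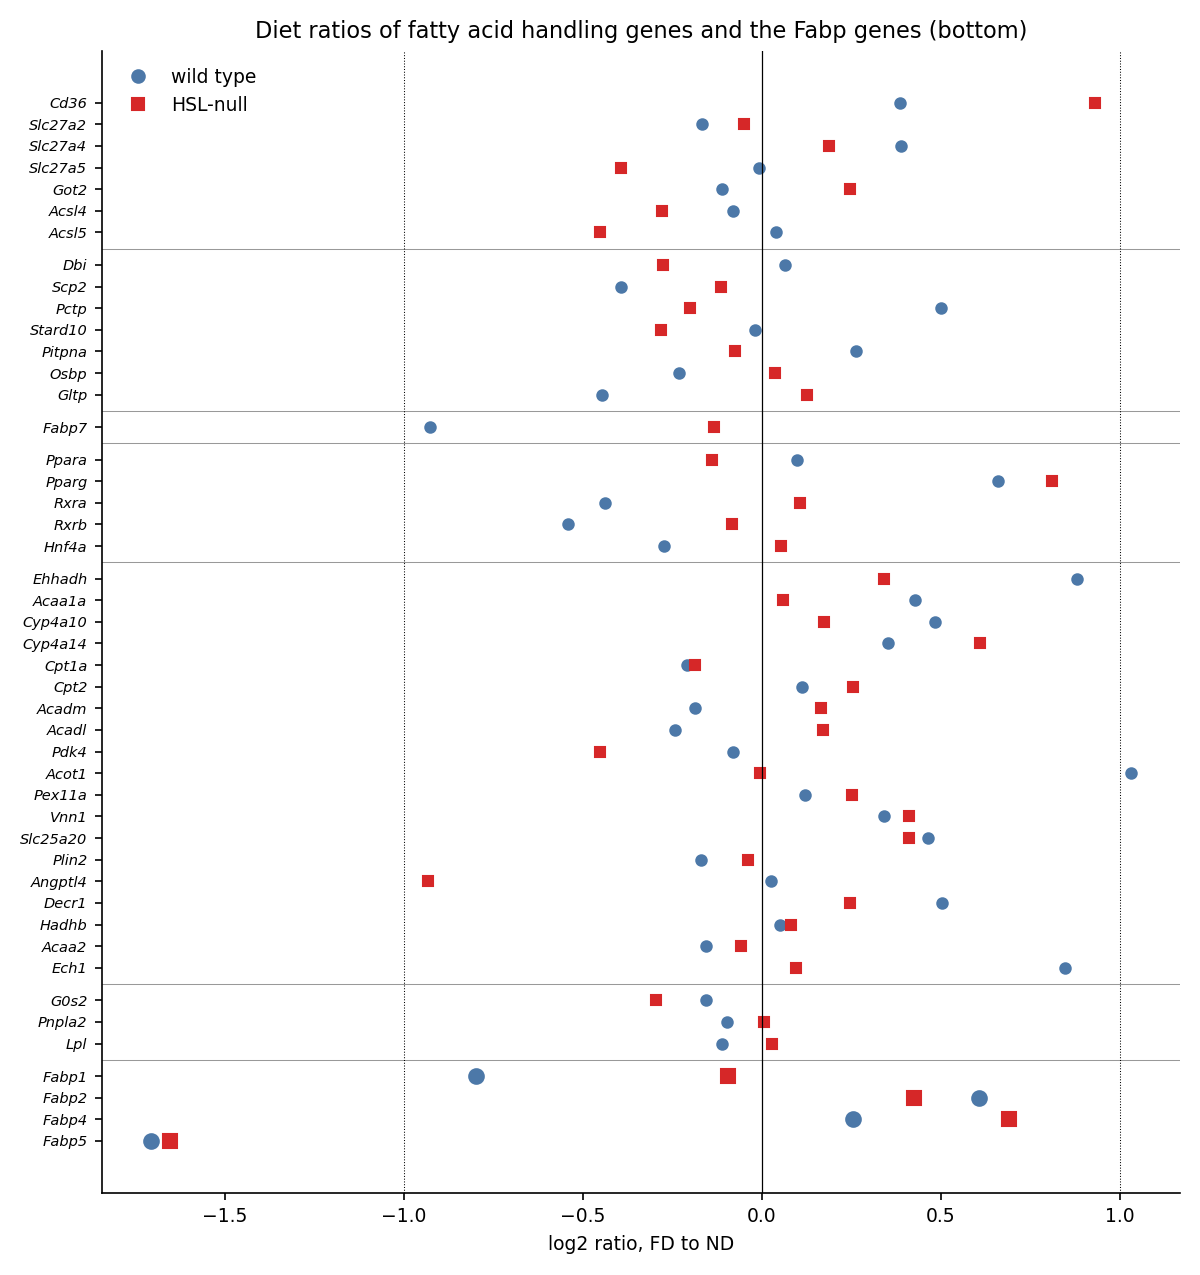
Log2 ratio of FD to ND (horizontal axis) in wild type (blue circles) and HSL-null liver (red squares) for the kept genes of the 6 pathway lists, separated by grey lines, with the Fabp genes at the bottom; dotted lines mark 2-fold. Fabp5 is the lowest gene in both genotypes, and Cd36, Pparg, Fabp2 and Fabp4 lie to the right of 0 in both.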

How the data were processed

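Biotin-labelled RNA of 4 liver pools was hybridised to 4 arrays. The deposited table gives, on a linear scale, an intensity for each probe set in each pool. It was made with MAS5, per the submitters' processing notes, whose version the sources used here do not give. Its 2% trimmed mean was 100.085 to 100.094 on every array. Detection calls were not used here. Probe sets were named through GEO's platform annotation (10833 of 12422 with 1 gene, 396 with several, 1193 with none) and gene identifiers matched to RefSeq of GRCm38.p6 (10817 matched, 0 symbols changed).

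Signals were raised to the floor of 6.1 and taken to log2. Genes were kept at a mean signal of at least 26.9, the median of the means, at their brightest probe set. With 1 array per group no test was made. The members and lists were chosen with earlier results of these data known. The text names every member probe set, of each pathway list up to 4 genes with the largest diet ratio and the centre genes Ppara, Pparg, Cd36, Cyp4a10 and Cyp4a14 where measured (1 further gene of this rule is not reported here), of each marker list up to 4 of the brightest, and the 5 genes most like a member that ranged over 2-fold. Marker genes named at or under the floor, the relatives of the family, the genes lower in both genotypes, Reg1 and Vwf were named after their values were seen. Counting was tested on simulated data. Alternatives were 3 normalizations (cyclic loess by limma 3.58.1), 2 treatments of low signals, 2 choices of probe set and 2 filters. Python 3.11.15 was used.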

Additional observations from a re-analysis of the deposited data

Results flagged for a closer look

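Among the 3 family genes above the filter, the kept genes of all lists and the genes most like Fabp5, 6 genes had ratios of opposite sign under the same contrast, on the 2 diets or in the 2 genotypes, with each ratio larger in size than the probe-set SD of 0.298. The difference was not tested, as each ratio rests on 1 pair of arrays. Fabp1 had log2 ratios of HSL-null to wild type of -0.40 on ND and 0.31 on FD. With median scaling they were -0.26 and 0.14, and with quantile normalization the ND ratio was -0.18. These values are smaller in size than the probe-set SD, though of the same signs. Pctp, which encodes a phosphatidylcholine carrier, had 0.31 on ND and -0.39 on FD, the reverse order. Kdr, a VEGF receptor gene of endothelium, had -0.44 on ND and 0.35 on FD. Cela1, an elastase gene of the exocrine pancreas list, had -0.45 on ND and 0.88 on FD for genotype, and -0.67 in wild type and 0.66 in HSL-null liver for FD to ND. Reg1, another gene of that list, had -1.41 in wild type and 0.83 in HSL-null liver for FD to ND. Vwf, the von Willebrand factor gene of endothelium, had -0.42 on ND and 0.40 on FD for genotype.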

How the results depend on the processing

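Of 108 values of the 4 family genes under 7 alternative settings, 106 moved by no more than the probe-set SD and 100 kept their sign. Many of them could not move, so these counts overstate the stability. Leaving out suffix probe sets changed no member's probe set, and Fabp2, Fabp4 and Fabp5 have 1 probe set each to average. All signals of the brightest Fabp1, Fabp2 and Fabp5 probe sets lay above the median floor. The 2 that moved more were the Fabp1 ratio of FD to ND in wild type, -0.48 with quantile normalization, and the Fabp4 ratio in HSL-null liver, 0.38 with a pseudocount of 16. With the floor at the median, Fabp4 was under it on all arrays and gave no ratio. Median scaling moved the median of all genes by 0.14 and -0.16 for diet in wild type and HSL-null liver, and by 0.13 and -0.17 for genotype on ND and FD.

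The counts of genes 2-fold lower and higher over all genes depended more on the processing. Given as lower and higher, for diet in wild type, diet in HSL-null liver, genotype on ND and genotype on FD, they were 114 and 38, 30 and 40, 52 and 24, and 46 and 90. With median scaling they were 76 and 60, 46 and 23, 36 and 30, and 70 and 53. With quantile normalization they were 85 and 47, 39 and 28, 38 and 28, and 58 and 64, and with cyclic loess 88 and 45, 39 and 27, 40 and 27, and 58 and 58. With a pseudocount of 16 they were 48 and 21, 19 and 14, 19 and 9, and 28 and 35. With no filter they were 336 and 144, 103 and 187, 218 and 95, and 142 and 277, and with the filter at the 75th percentile 28 and 19, 18 and 12, 7 and 7, and 24 and 20. With that floor raised to the median signal, 23 genes were higher for diet in HSL-null liver, 30 lower for genotype on ND and 52 higher for genotype on FD. No paired analysis was possible because each group holds 1 array.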
